A study of Homo sapiens with 4 samples.

Results

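Isolated pseudogenes are the RefSeq genes of biotype pseudogene on chromosomes 1 to 22 whose ends both lie more than 5 kb from every end of a protein-coding gene. There are 12499 of them among 56756 annotated genes on those chromosomes, and 365 carried a peak of at least 1 of the antibodies within 1 kb of either end (2.92%, 95% interval 2.63 to 3.23). They were examined in NB4, a cell line from human acute promyelocytic leukemia that makes the PML/RARA fusion protein. The assay was CUT&Tag: a transposase is brought to chromatin by an antibody and cuts and tags the DNA nearby. The data used are 1 peak list from a library made with an antibody labelled PPARα, a nuclear receptor that senses fatty acids, and 1 from a library made with an antibody labelled PML/RARA. Whether the PML/RARA antibody also binds PML or RARA alone is a point on which the labels are silent. Each list comes from 1 library without a replicate, and the IgG library named for each antibody was not analysed here. The PPARα list held 9573 peaks on chromosomes 1 to 22 and the PML/RARA list 45085. Read depth is unknown, so a pseudogene without a peak is one where none was called in that list. No test between samples exists, and every interval given is an exact Clopper-Pearson interval that covers counting error over genes or peaks only. For a family with no peak, the share that a count of 0 allows is given separately, as 3 counts of its total.

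Pseudogenes are copies of genes that have lost their original coding or RNA function. Processed copies arise when a spliced messenger RNA is reverse transcribed and inserted elsewhere, so they usually lack the promoter of their parent, while unprocessed copies arise by duplication of a stretch of DNA. Small structural RNAs such as the spliceosomal U RNAs, 7SL and Y RNAs have also left large numbers of copies. The labels do not say whether reads that match several near-identical copies were kept, so for such families it is uncertain which copy a peak belongs to.

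Sequences are printed for the few marked pseudogenes where a promoter or a microRNA hairpin was found under both peaks. They do not stand for the rest. An end of a long noncoding RNA gene lay within 1 kb of the PPARα summit at 7 of the 41 pseudogenes with both peaks (17.1%, 7.15 to 32.1). With PPARα alone this held at 1 of 20 (5%, 0.127 to 24.9). For the PML/RARA summit it held at 7 of the 41 and at 16 of 304 with PML/RARA alone (5.26%, 3.04 to 8.41). At 3 pseudogenes with peaks of both antibodies, LOC441241, RNU2-4P and RPL39P32, both peaks reached the promoter of a long noncoding RNA gene, printed here from RefSeq GRCh38.p14 with letters of the searched motifs in capitals. The promoter of LOC105375330 (chr7:65038212-65038511, minus strand) had 274 of its 300 bases under both peaks, and those of LINC00910 (chr17:43388849-43389148, minus strand) and SNHG30 (chr17:35567864-35568163, plus strand) all 300.
LOC105375330: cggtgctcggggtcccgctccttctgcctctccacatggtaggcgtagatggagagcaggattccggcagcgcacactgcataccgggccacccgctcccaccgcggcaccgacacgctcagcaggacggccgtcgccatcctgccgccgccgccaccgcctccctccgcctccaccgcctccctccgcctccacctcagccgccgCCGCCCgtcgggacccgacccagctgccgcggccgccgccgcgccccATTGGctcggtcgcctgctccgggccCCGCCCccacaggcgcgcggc
LINC00910: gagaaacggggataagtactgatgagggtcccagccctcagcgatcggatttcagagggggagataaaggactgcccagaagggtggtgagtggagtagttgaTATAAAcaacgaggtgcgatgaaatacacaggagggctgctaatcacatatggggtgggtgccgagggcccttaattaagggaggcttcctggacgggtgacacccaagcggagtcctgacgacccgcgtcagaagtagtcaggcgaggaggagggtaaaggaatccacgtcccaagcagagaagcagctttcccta
SNHG30: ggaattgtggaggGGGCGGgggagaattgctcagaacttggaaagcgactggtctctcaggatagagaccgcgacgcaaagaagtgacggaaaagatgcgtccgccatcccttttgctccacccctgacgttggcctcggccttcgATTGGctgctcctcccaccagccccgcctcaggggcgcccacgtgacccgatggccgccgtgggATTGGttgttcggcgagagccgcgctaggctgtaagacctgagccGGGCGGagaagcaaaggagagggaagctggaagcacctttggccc

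Both strands were searched for the core site of nuclear receptors, AGGTCA, and for its direct repeats DR1, DR2 and DR5, in which 1, 2 or 5 other bases part the copies. The other motifs searched were CCGGAAG for ETS factors, CCAAT for the factor NF-Y, GGGCGG for SP and KLF factors, GGTTCGA for the B box of RNA polymerase III genes, and TATAAA for the TATA box. The core site lies inside each direct repeat, so these are not independent searches. Capitals mark the NF-Y and SP/KLF motifs, on either strand, in LOC105375330 (1 and 2 matches) and in SNHG30 (2 and 2 matches), and the TATA box in LINC00910. Of 12569 promoters of long noncoding RNA genes, 34.4% hold the NF-Y motif, 25.6% the SP/KLF motif and 15.0% the TATA box, and of all 33725 promoters 34.4%, 45.0% and 11.6%. The core site and its direct repeats are not among the letters of these 3 windows, while 17.1% of the promoters of long noncoding RNA genes and 13.8% of all promoters hold the core site, and 0.0239% and 0.0237% hold DR1. A match is a description of the letters and not a bound site. In all, 8 promoters of long noncoding RNA genes had at least 1 base under a marking peak of either list. Their median GC content was 64% against 50% over 12569 such promoters, and the pseudogenes themselves have no promoter in the table used.

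At a further pair of pseudogenes with both peaks, the variant U1 copies RNVU1-21 and RNVU1-2, the hairpin of a microRNA gene stood under both peaks, 58 and 127 bases before the copy on the chromosome. Hairpins were sought at variant U1 copies only. Those found are MIR5087 (chr1:148334479-148334554, minus strand) and MIR6077 (chr1:148388282-148388363, plus strand), shown with the mature microRNA in capitals.
MIR5087: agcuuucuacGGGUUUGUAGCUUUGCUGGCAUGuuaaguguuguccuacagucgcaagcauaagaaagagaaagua
MIR6077: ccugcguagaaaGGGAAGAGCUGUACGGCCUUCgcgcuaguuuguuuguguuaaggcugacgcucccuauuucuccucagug

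Peaks at isolated pseudogenes were rare. PPARα marked 61 of 12499 (0.488%, 0.374 to 0.626), PML/RARA marked 345 (2.76%, 2.48 to 3.06) and both marked 41 (0.328%, 0.235 to 0.445). Over all annotated genes the shares were 15.3%, 29.7% and 15%. Pseudogenes within 5 kb of a coding end were marked more often, at 55 of 1825 for PPARα (3.01%, 2.28 to 3.90) and 193 for PML/RARA (10.6%, 9.20 to 12.1). Isolated pseudogenes that RefSeq lists as transcribed reached 47 of 855 (5.50%, 4.07 to 7.24) and 148 (17.3%, 14.8 to 20.02). For isolated long noncoding RNA genes the counts were 408 of 12457 (3.28%, 2.97 to 3.60) and 1377 (11.1%, 10.5 to 11.6). None of these intervals overlapped that of isolated pseudogenes in the same list. In short genes the windows at both ends overlap, so the length searched depends on gene length, and the shares were not corrected for it.

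**Figure D1:**
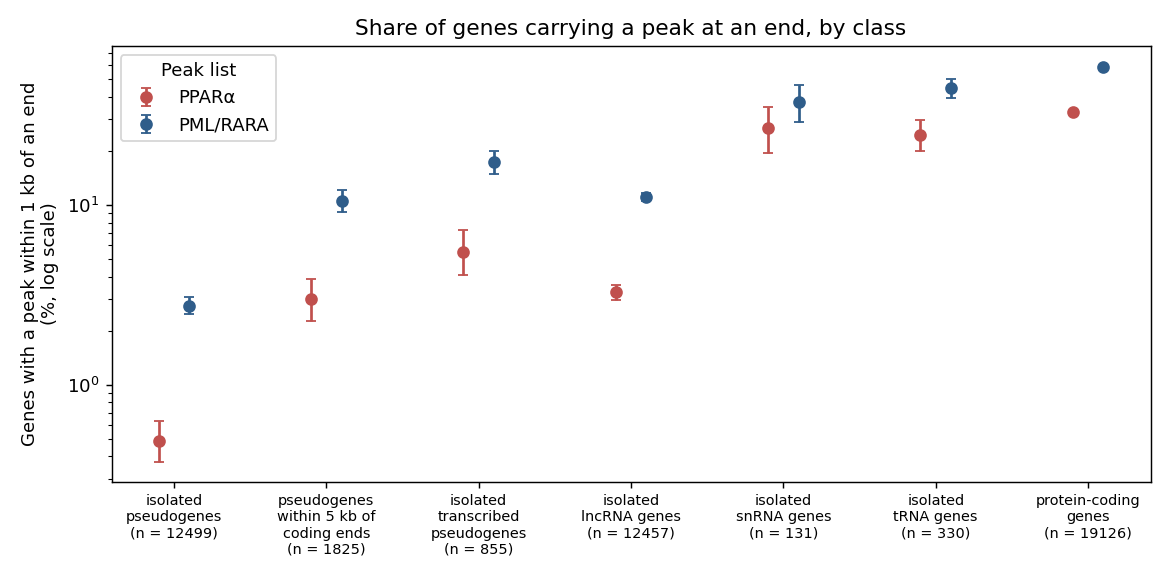
Percent of genes with a peak within 1 kb of an end (log scale) for 7 classes of genes, with PPARα in red, PML/RARA in blue and bars for 95% exact intervals. Isolated pseudogenes are the lowest class in both lists, at 0.488% and 2.76%.

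Isolated pseudogenes had about the same share of bases under peaks as all sequence more than 5 kb from coding ends. Of the 34.0 Mb within 1 kb of their ends, PPARα peaks covered 0.0751% and PML/RARA peaks 0.250%, against 0.0744% and 0.277% of the 2413 Mb that lies more than 5 kb from coding ends. Within coding gene bodies the windows had 0.0670% under PPARα peaks and 0.212% under PML/RARA peaks, against 0.0885% and 0.359% of all such sequence. Outside coding bodies the order turned, with 0.0791% and 0.269% in the windows against 0.0638% and 0.215% of all such sequence. The similar shares over all windows therefore average opposite differences inside and outside coding bodies. No interval is given for these coverages, because neighbouring bases share peaks. Sequence next to each pseudogene was not compared separately.

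Marked pseudogenes were rarer far from coding genes. PML/RARA marked 77 of 1599 isolated pseudogenes at 5 to 10 kb (4.82%, 3.82 to 5.98), 121 of 3055 at 10 to 25 kb (3.96%), 68 of 2457 at 25 to 50 kb (2.77%), 54 of 2038 at 50 to 100 kb (2.65%), 16 of 1728 at 100 to 250 kb (0.926%) and 9 of 1622 beyond 250 kb (0.555%, 0.254 to 1.05). The PPARα counts in the same order were 12, 17, 16, 8, 7 and 1, with 0.750% marked in the nearest class, 0.651% at 25 to 50 kb and 0.0617% in the farthest. The share of all sequence under peaks declined with each step of distance in both lists. In the nearest class the pseudogene windows had fewer bases under peaks than all sequence, at 0.0969% against 0.150% for PPARα and 0.421% against 0.702% for PML/RARA, and at 50 to 100 kb the values were close (0.0706% against 0.0704%, and 0.226% against 0.242%). The PPARα windows were above all sequence at 25 to 50 kb (0.113% against 0.100%) and at 100 to 250 kb (0.0765% against 0.0407%). Beyond 250 kb the PML/RARA windows were above it (0.0561% against 0.0277%) and the PPARα windows below it (0.0132% against 0.0187%).

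**Figure D2:**
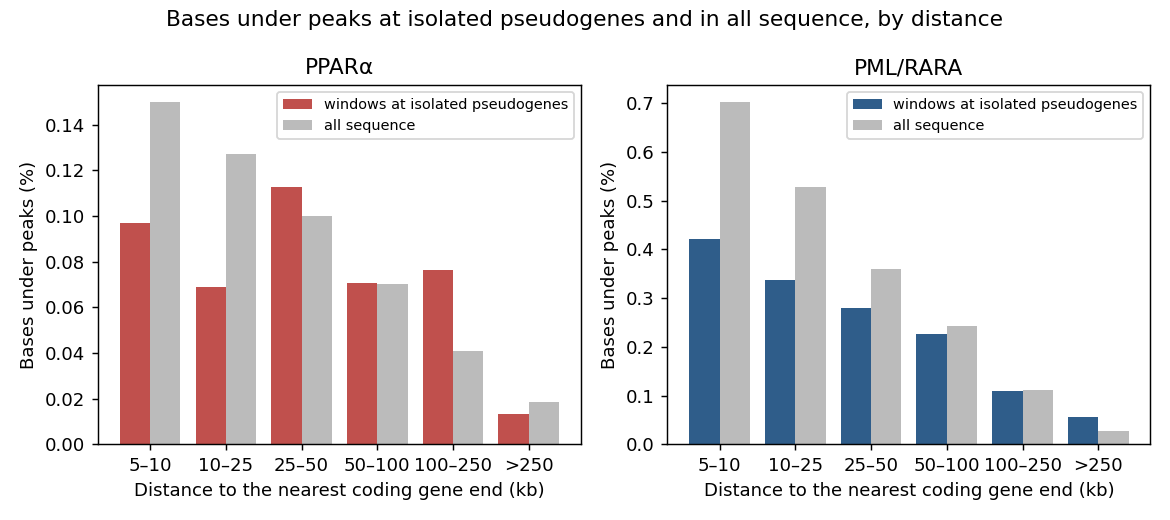
Percent of bases under peaks within 1 kb of isolated pseudogene ends (coloured bars) and in all sequence of the same distance to a coding gene end (grey bars), for 6 distance classes in kb. All sequence declines with each step, and the pseudogene windows are below it at 5 to 10 and 10 to 25 kb in both lists.

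Other annotated genes nearby went with more marks. Among the 561 isolated pseudogenes that had an end of another gene within 1 kb (of any biotype other than protein-coding and plain pseudogene), PPARα marked 13 (2.32%, 1.24 to 3.93) and PML/RARA 44 (7.84%, 5.76 to 10.4), against 48 (0.402%, 0.297 to 0.533) and 301 (2.52%, 2.25 to 2.82) of the 11938 without one. The neighbour was a long noncoding RNA gene for 419 pseudogenes, of which PPARα marked 7 and PML/RARA 27. It was a transfer RNA gene for 12, of which PPARα marked 2 and PML/RARA 4. It was a pseudogene listed as transcribed for 68, of which PPARα marked 3 (4.41%, 0.919 to 12.4) and PML/RARA 13 (19.1%, 10.6 to 30.5). Only 7 had an end of a small nuclear RNA gene that close, and 2 of these carried both marks. Whether a peak belongs to the pseudogene or to the neighbour cannot be told apart by position alone.

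At the 41 pseudogenes with both marks the peaks coincided. The highest-scoring peak of each list overlapped at 39 of 41 (95.1%, 83.5 to 99.4), with a median distance between summits of 127 bases and 29 summit pairs within 200 bases. Of all PPARα-marked pseudogenes, 67.2% also carried PML/RARA (54.0 to 78.7), and of all PML/RARA-marked ones 11.9% also carried PPARα (8.66 to 15.8). Counted over peaks, 39 of the 60 PPARα peaks that marked a pseudogene overlapped a PML/RARA peak (65.0%, 51.6 to 76.9), and 79.3% (78.0 to 80.6) of all 3608 PPARα peaks with a summit more than 5 kb from coding ends did so. That share was 49.4% of the 858 far PPARα peaks with a −log10 q below 3 and 94.1% of the 1746 with at least 5. For PML/RARA the shares were 12.2% (9.01 to 15.9) of 370 marking peaks and 12.4% of 25793 far peaks.

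Several of the highest-scoring pseudogenes had peaks of both antibodies. FAM86GP (chr11:3408224-3422552), a copy of the FAM86 family of methyltransferase-like genes, had the highest PPARα score, with an authors' fold enrichment of 12.6 and a PML/RARA fold of 21.5, and its −log10 q was 24.4 for PPARα and 159 for PML/RARA. The PPARα summit lay 255 bases beyond its end. GGCTP1, a copy of the gene of gamma-glutamylcyclotransferase, had folds of 9.94 and 16.9 with the PPARα summit 393 bases away, within 1 kb of an end of the long noncoding RNA gene LOC102724720. SMURF2P1, a copy of a ubiquitin ligase gene, had 8.11 and 17.2, and its parent SMURF2 had 7.93 and 22.5 at its own ends. SEC22B4P, named for a vesicle transport gene, had 7.81 and 19.4 beside the small nuclear RNA gene LOC124904613. Of the pseudogenes without a parent in the symbol, LOC107985098 inside MIA3 had 8.95 and 14.8, and LOC441241 had 6.30 and 28.1.

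Folds were higher where both antibodies had a peak. The PPARα fold ranged from 3.30 to 12.6 with a median of 6.61 at the 41 pseudogenes with both marks, and from 3.30 to 5.08 with a median of 4.13 at the 20 with PPARα alone. The ranges overlap, and the fold was at most 4.5 at 4 of the 41 and at 14 of the 20. The PML/RARA fold had a median of 13.6 at the 41 (5.64 to 34.9) and 6.70 at the 304 with PML/RARA alone (2.08 to 56.6). Over all peaks on chromosomes 1 to 22 the medians were 6.26 for PPARα and 7.39 for PML/RARA, and a fold of 1 list cannot be set against a fold of the other.

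**Figure D3:**
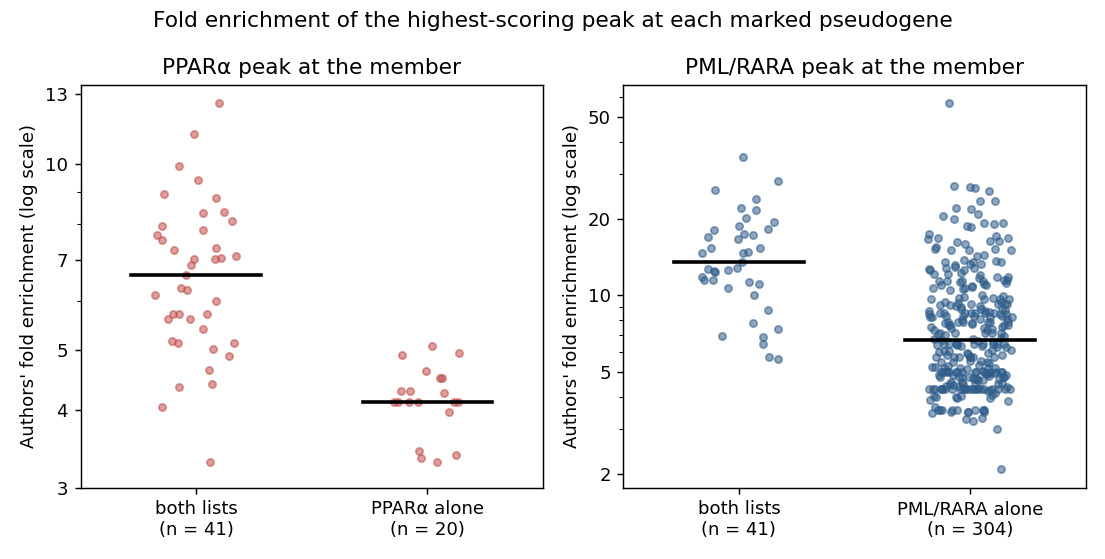
Authors' fold enrichment (log scale) of the highest-scoring PPARα peak (left) and PML/RARA peak (right) at each marked isolated pseudogene, 1 point per pseudogene, with the median as a line. Pseudogenes with peaks of both lists (n = 41) have medians of 6.61 and 13.6, against 4.13 and 6.70 where 1 list marks alone (n = 20 and n = 304).

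The 20 pseudogenes with PPARα alone rested on peaks of low score, with a −log10 q of 1.47 to 4.24. It was below 3 at 4 of the 41 with both marks (9.76%, 2.72 to 23.1), at 15 of the 20 with PPARα alone (75%, 50.9 to 91.3) and at 23.8% of all PPARα peaks far from coding ends. At 5 of the 20, among these the keratin 18 copies KRT18P16 and KRT18P60 and YKT6P1, a copy of a membrane fusion gene, the fold was the same value of 4.13, which 91 of 9829 PPARα peaks share. The PPARα summit lay inside the copy at 10 of 20, as in TOMM40P3 (fold 4.95), a copy of the mitochondrial import pore gene TOMM40, and RPS2P47 (4.29), a copy of a small ribosomal subunit gene. YKT6P1 and TOMM40P3 were singled out after their values were seen. Over all marked pseudogenes the summit fell inside the copy at 21 of 61 for PPARα (34.4%, 22.7 to 47.7) and at 100 of 345 for PML/RARA (29.0%, 24.3 to 34.1), and 29.95% of the window bases lie inside a pseudogene.

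Small nuclear RNA copies were numerous. For each type apart from the U5 and variant U1 copies, the interval included the share of all isolated pseudogenes (0.488% for PPARα and 2.76% for PML/RARA). U1 copies were marked at 1 of 84 by PPARα (1.19%, 0.0301 to 6.46) and at 5 by PML/RARA (5.95%, 1.96 to 13.3). U2 copies had 1 of 56 in each list (1.79%, 0.0452 to 9.55). Of 87 U4 copies, PML/RARA marked 1 (1.15%, 0.0291 to 6.24). Each antibody marked 2 of 20 U5 copies (10%, 1.23 to 31.7). That interval lies above the PPARα share of all isolated pseudogenes and includes the PML/RARA share. The RNU copies derive from RNAs of splicing and histone RNA processing, among them U1, U2, U4, U5, U6, U6atac, U7 and U11. They had PPARα peaks at 8 of 1490 (0.537%, 0.232 to 1.06) and PML/RARA peaks at 41 (2.75%, 1.98 to 3.71). Copies with a symbol that starts with RNU6, U6atac copies included, made up 1091 of these, with 3 and 28 marked (0.275% and 2.57%). RNU5E-4P (chr1:11909808-11909927) had the highest PML/RARA score of any isolated pseudogene, with 328 as its −log10 q and 11.1 as its fold, and its PPARα fold was 7.55. Both summits lay more than 1 kb away from it, at 1219 bases for PPARα and 1017 for PML/RARA, and within 1 kb of an end of the gene RNU5E-1. RNU5A-8P inside HHAT had folds of 7.31 and 11.3, and RNU1-27P had 7.96 and 20.2 with the summits 1102 and 1171 bases away. For RNU2-4P the folds were 5.73 and 14.7, over the LINC00910 promoter printed above, and the PPARα peak lay 999 bases from the copy.

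The variant U1 copies, which resemble the U1 RNA that recognises the start of introns, had the highest share of the small nuclear RNA types. PPARα and PML/RARA both marked the same 4 of 7 isolated RNVU1 pseudogenes (57.1%, 18.4 to 90.1), a class set apart after its values were seen. RNVU1-34 (chr17:58679527-58679690), inside TEX14, had a PPARα fold of 8.82 and a PML/RARA fold of 18.7. RNVU1-23 (7.05 and 17.4), RNVU1-21 (6.86 and 18.2) and RNVU1-2 (7.03 and 15.3) lie on chromosome 1. The PPARα summits were inside the copy or within 16 bases of it at these 3, and 235 bases away at RNVU1-34. No peak lay at RNVU1-22, RNVU1-32 or RNVU1-33. Isolated RNVU1 genes that RefSeq lists as working small nuclear RNA genes had PPARα peaks at 9 of 17 (52.9%, 27.8 to 77.0) and PML/RARA peaks at 12 of 17 (70.6%, 44.0 to 89.7), so the intervals of the RNVU1 pseudogenes and genes overlapped in both lists. For U5 they did not, with 2 of 20 pseudogenes marked by each antibody (10%, 1.23 to 31.7) against 4 of 4 genes (39.8 to 100). Nor did they for RNU6 symbols. PPARα marked 3 of 1091 such pseudogenes (0.0567 to 0.801) against 2 of 3 genes (9.43 to 99.2). PML/RARA marked 28 (1.71 to 3.69) against 3 of 3 genes (29.2 to 100). For U1 the intervals overlapped for PML/RARA and not for PPARα (0.0301 to 6.46 against 6.76 to 93.2).

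**Figure D4:**
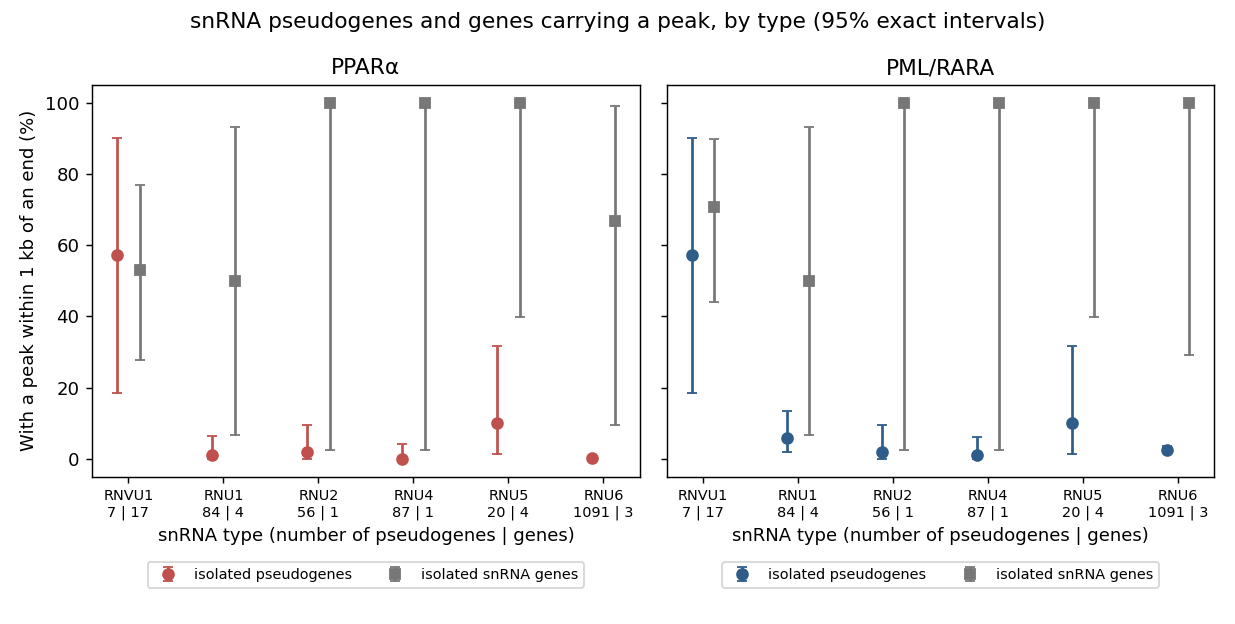
Percent of isolated small nuclear RNA pseudogenes (coloured circles) and isolated small nuclear RNA genes (grey squares) with a peak within 1 kb of an end, by RNA type, with 95% exact intervals and the number of each under the axis. The RNVU1 pseudogenes, at 57.1% in both lists, are near the RNVU1 genes, while the RNU pseudogenes are at 10% or below. The RNU6 pseudogenes include U6atac copies.

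For the other small RNA families the intervals included the shares of all isolated pseudogenes (0.488% for PPARα and 2.76% for PML/RARA). The 7SL and 7SK copies, from the RNAs of the signal recognition particle and of transcription elongation control, had PPARα peaks at 4 of 796 (0.503%) and PML/RARA peaks at 23 (2.89%). RN7SKP249 had folds of 8.34 and 26.0, with summits 579 and 580 bases away, and RN7SL371P had 7.26 and 15.3. Copies of 5S ribosomal RNA were marked at 1 and 10 of 428 (0.234% and 2.34%). RNA5SP146 had both, with folds of 5.42 and 11.8. Transfer RNA copies had 1 and 4 of 82 (1.22% and 4.88%). TRL-AAG7-1 (folds 6.15 and 6.94) had both summits within 1 kb of the transfer RNA gene TRV-AAC1-2, and the PML/RARA summits at TRUND-NNN3-1 (13.7) and TRP-AGG6-1 (3.45) lay as near to TRE-TTC4-2 and TRR-CCT3-1. Y RNA copies had no PPARα peak in 65, which allows a share of up to 4.62%, and PML/RARA peaks at 2. PML/RARA alone marked 1 of 3 small nucleolar RNA copies and 1 of 1 vault RNA copy.

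Ribosomal protein copies were marked at shares whose intervals include those of all isolated pseudogenes, 0.488% for PPARα and 2.76% for PML/RARA. The RPL copies had PPARα peaks at 3 of 1068 (0.281%, 0.0580 to 0.819) and PML/RARA peaks at 26 (2.43%, 1.60 to 3.55), and the RPS copies at 2 of 569 (0.351%, 0.0426 to 1.26) and 9 (1.58%, 0.726 to 2.98). RPS13P4 inside ATAD2B had a PPARα fold of 9.44 and a PML/RARA fold of 6.43 with both summits inside the copy, and its parent RPS13 had 8.15 and 17.6 at its own ends. RPL39P32 had 5.18 and 21.9 over the promoter of SNHG30, a small nucleolar RNA host gene. RPL29P34 had 6.01 and 12.6, and RPL37P14 inside RBM47 had 4.41 and 5.71. Among those with PML/RARA alone, RPLP2P4 reached a fold of 26.6 with the summit 1055 bases away, and RPS15P9 reached 12.6 with the summit inside.

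A few protein families, picked here for their shares from 45 listed families, were above all isolated pseudogenes (0.488% for PPARα and 2.76% for PML/RARA), with wide intervals. No correction was made for the number of families. Higher PML/RARA shares were also found elsewhere, as in FAM-named copies (8.11%, 1.70 to 21.9) and tubulin copies (4.44%, 0.543 to 15.1). The ATP synthase subunit copies had PML/RARA peaks at 5 of 44 (11.4%, 3.79 to 24.6) and a PPARα peak at 1, ATP5MC1P3, with folds of 5.62 and 6.87. Keratin copies had PPARα peaks at 3 of 116 (2.59%, 0.537 to 7.37) and PML/RARA peaks at 8 others (6.90%, 3.02 to 13.1). The PML/RARA peaks included KRT8P42 (11.8) inside SGK1 and KRT8P45 (9.28), and the parents KRT8, KRT18 and KRT19, structural genes of epithelial cells, had no peak at their ends. The DUX4L copies, repeats of a homeobox gene active in early embryos, had PPARα peaks at 2 of 44 (4.55%, 0.555 to 15.5) and PML/RARA peaks at 4 (9.09%, 2.53 to 21.7). DUX4L44 on chromosome 22 had both, with a PPARα fold of 8.37 and 4 PML/RARA peaks, the highest at 13.6. DUX4L8 (PPARα 3.98) and DUX4L4 (PML/RARA 10.7) lie on chromosome 4, and the 14 copies on chromosome 10 had no peak. Histone copies had 1 of 54 for PPARα (1.85%, 0.0469 to 9.89) and 3 for PML/RARA (5.56%, 1.16 to 15.4). At H3C9P (folds 7.12 and 16.6) both summits were within 1 kb of the transfer RNA gene TRR-TCG2-1. The histone intervals in both lists and the DUX4L interval for PML/RARA include the share of all isolated pseudogenes. With peaks of −log10 q of at least 5 only, PPARα counts were 0 for ATP synthase, 0 for keratin, 1 for DUX4L and 1 for histone copies. The PML/RARA counts were then 4, 5, 4 and 2.

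Some other families had few PML/RARA peaks or no peak of either list. Over all isolated pseudogenes the shares were 0.488% for PPARα and 2.76% for PML/RARA. Copies of mitochondrial genome genes had no PPARα peak in 434, which allows a share of up to 0.691%, and PML/RARA peaks at 3 (0.691%, 0.143 to 2.01). One of these, MTCYBP13 on chromosome 17, a copy of the cytochrome b gene 815 kb from the nearest coding end, had the highest PML/RARA fold of any isolated pseudogene, 56.6, with the summit 679 bases away. Olfactory receptor relics were marked at 2 of 380 by PPARα (0.526%, 0.0638 to 1.89), near the share of all isolated pseudogenes. PML/RARA marked 4 of them (1.05%, 0.288 to 2.67), and OR10AA1P had both (5.61 and 7.40). No peak of either list was found at 103 HNRNP, 85 mitochondrial ribosomal protein, 66 PPIA, 60 EEF1, 54 zinc finger or 50 cytochrome c oxidase copies, which allows shares of up to 2.91%, 3.53%, 4.55%, 5%, 5.56% and 6%. All these limits lie above the shares of all isolated pseudogenes, so a count of 0 does not set any of these families apart. In all, 19 of 45 listed families, with 729 pseudogenes, had no marked member, a group picked by that count. Over all isolated pseudogenes 2.92% had a peak of at least 1 list. With PML/RARA alone, the highest score lay at SIGLEC28P, a relic of a sialic acid receptor gene of immune cells, with 26.9 as its fold and 305 as its −log10 q. UBE2V1P4, a copy of a ubiquitin conjugation gene, had a fold of 23.4. LOC100418938, inside EHMT1, had 19.2 with the summit within 1 kb of an end of the long noncoding RNA gene LOC651337.

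**Figure D5:**
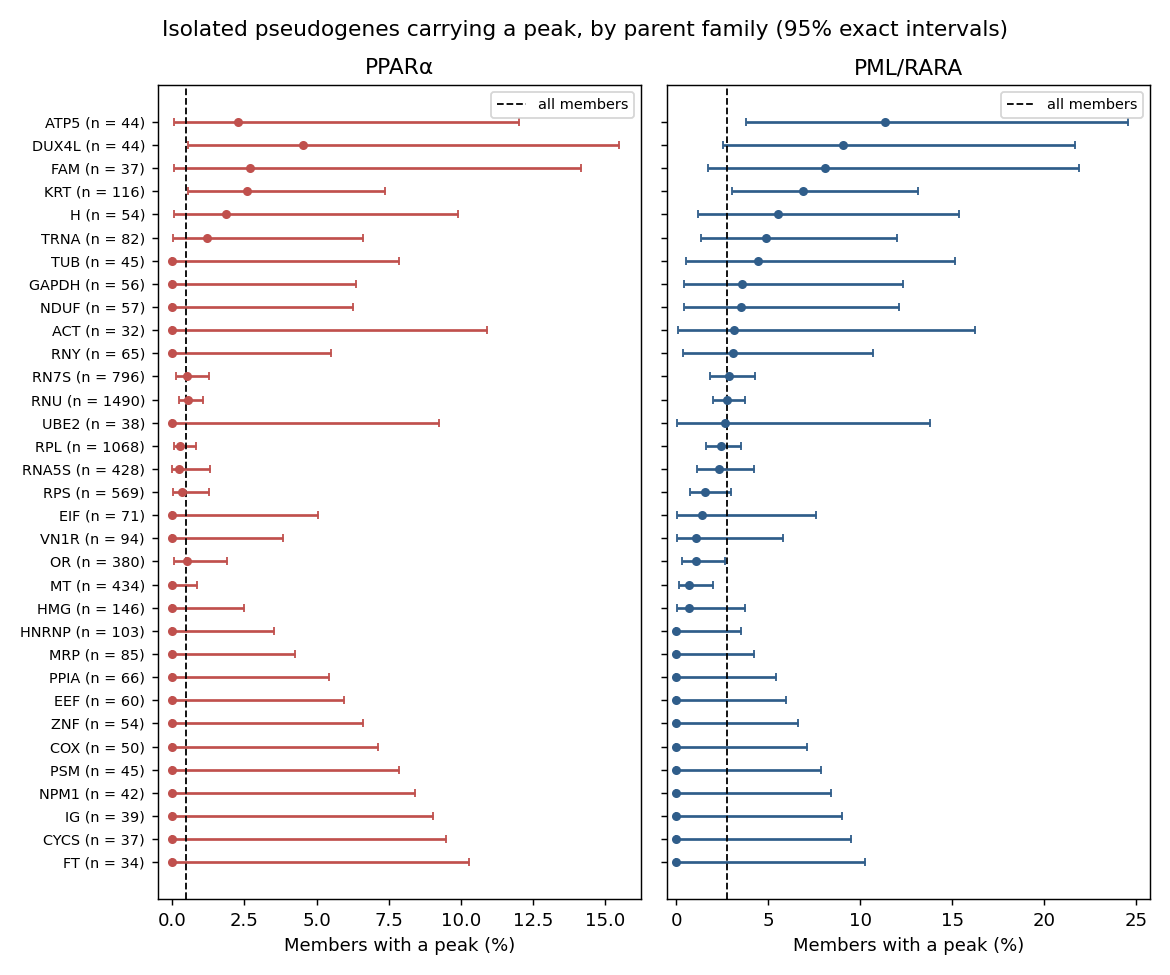
Percent of isolated pseudogenes with a PPARα peak (left) and a PML/RARA peak (right), for each parent family of at least 30 pseudogenes, with 95% exact intervals and a dashed line at the share of all isolated pseudogenes. Most intervals include that share, 0.488% and 2.76%, and families with no peak have upper bounds set by their size.

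Copies of parents with a peak were not marked at a higher share than copies of parents without one. A protein-coding parent could be read from the symbol of 6229 isolated pseudogenes. PPARα marked 11 of the 3871 whose parent carried a PPARα peak at an end (0.284%, 0.142 to 0.508) and 12 of the 2358 whose parent did not (0.509%, 0.263 to 0.887). PML/RARA marked 130 of 5443 (2.39%, 1.999 to 2.83) whose parent carried a PML/RARA peak and 25 of 786 (3.18%, 2.07 to 4.66) whose parent did not. The intervals overlapped in both lists. The PML/RARA share was 2.73% for parents with 1 isolated copy, 2.73% for those with 2 to 9 copies and 2.18% for those with 10 or more.

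Pseudogenes on either side of the limits of the definition had these values. The PPARα-marked pseudogene nearest to the 5 kb limit inside it was TRL-AAG7-1 (5279 bases, fold 6.15), and the nearest outside was ST6GALNAC4P1 (4871 bases, 4.26). For PML/RARA these were LOC124903089 (5004 bases, 8.57) and LOC124900431 (4932 bases, 6.17). At the 1 kb window the last PPARα peak counted lay 999 bases from RNU2-4P (5.73), and the first left out 1008 bases from RPL35AP35 (5.26). For PML/RARA they lay 1000 bases from EXOSC3P2 (3.85) and 1007 bases from DENRP1 (4.72).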

How the data were processed

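The deposited files are 2 peak lists in narrowPeak layout, matched to the libraries by antibody name. For each peak the authors give a fold enrichment (a linear ratio over background), a summit, the −log10 of a p-value and of a q-value, and a score (10 times the −log10 q, cut to a whole number). The submitters' processing notes list bedtools, MACS 1.4.2, SAMtools, Bowtie2 2.2.9 and hg38, with no role or setting. They do not say whether IgG served as control, duplicates were removed or regions were masked. The smallest −log10 q was 1.32 for PPARα and 1.30 for PML/RARA.

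Gene positions and biotypes were those of RefSeq for GRCh38.p14, a patch release of the hg38 assembly. A gene was marked when at least 1 base of a peak lay within 1 kb of either end, and the peak with the highest −log10 q is quoted. Families were read from the start of the symbol. Coverage left out stretches over 1 Mb without a gene or peak. Shares have 95% exact intervals from scipy 1.17.1. The marking rule was tested on simulated data. The members, families and lists were chosen with earlier results of these data known, and the RNVU1 class was added later. Genes named were drawn, without printing all, from the 10 highest by −log10 q per list, the 10 best joint ranks, up to 3 per family, and those singled out in the text. Among the top ranks, 1 pseudogene is not reported here. The planned motif comparison between pseudogenes was not run, since the promoter table used holds none of them.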

Additional observations from a re-analysis of the deposited data

How the results depend on the processing

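The counts of 61 (PPARα), 345 (PML/RARA) and 41 (both) and the 67.2% of PPARα-marked pseudogenes with PML/RARA moved with the window, the peak threshold, the length of the PML/RARA list and the pseudogene biotypes counted. Windows of 5000 bases gave 266, 1270 and 226 with a share of 84.96%, and windows of 500 bases gave 216 for PML/RARA and 25 for both. Peaks with −log10 q of at least 5 gave 27 for PPARα and 27 for both, so the share was 100%, and a fold of at least 5 gave 36 for PPARα and 97.2%. A PML/RARA list shortened to the length of the PPARα list gave 42 for PML/RARA, 20 for both and 32.8%. Counting all pseudogene biotypes, an alternative chosen after seeing the data, gave 113 for PPARα, 91 for both and 80.5%. The other 35 of 52 recomputed values stayed within 1.5 times the count or within the interval of the share, among them all values for summits within 1 kb, 10 kb isolation, pseudogenes outside coding bodies, and shared peaks counted once. For the families, 61 of 144 recomputed counts moved by more than 1.5 times, 43 of them with windows of 5000 bases. No paired analysis was possible because each antibody has 1 list. Depth is unknown, and families of few pseudogenes leave wide intervals.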

Other observations

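Marked pseudogenes were unevenly spread over chromosomes, and those with the highest and lowest shares are given. Over all isolated pseudogenes the shares were 2.76% for PML/RARA and 0.488% for PPARα. Shares of other genes by chromosome were not computed, so whether the spread is particular to pseudogenes was not tested. PML/RARA marked 24 of 339 isolated pseudogenes on chromosome 19 (7.08%, 95% exact interval 4.59 to 10.4), 28 of 434 on chromosome 17 (6.45%, 4.33 to 9.19) and 19 of 373 on chromosome 16 (5.09%, 3.09 to 7.84). On chromosomes 8 and 18 it marked 5 of 591 (0.846%) and 2 of 276 (0.725%). PPARα marked 7 of 434 on chromosome 17 (1.61%) and 11 of 1164 on chromosome 1 (0.945%), and all 11 on chromosome 1 carried PML/RARA as well. It marked none of 623 on chromosome 9, 430 on 13, 276 on 18, 295 on 20 and 188 on 21. The interval of each of these includes 0.488%.

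Copies of DNM1, the gene of the membrane-cutting protein dynamin 1, were the parent group with the most marked isolated pseudogenes, singled out after their values were seen. PML/RARA marked 5 of 10 and PPARα marked 1 other, against 2.76% and 0.488% of all isolated pseudogenes. The PML/RARA folds were 12.1 at DNM1P9, 8.34 at DNM1P17, 8.25 at DNM1P37, 7.67 at DNM1P19 and 4.998 at DNM1P49, and the PPARα fold was 3.44 at DNM1P47. In each case the summit lay outside the copy, from 89 bases at DNM1P37 to 897 bases at DNM1P17.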
